A study of Homo sapiens with 42 samples.

Results

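The 9 genes described here encode transcription factors of the AP-1 and EGR families: FOS, FOSB, FOSL1 and FOSL2, JUN, JUNB and JUND, and EGR1 and EGR2. They were chosen by name, with earlier results of these data known, as the entries of the count table with these gene symbols. They made up 9 of 57353 gene names. Shares of all genes printed beside counts of members give a scale and do not test the set. All 9 were among the 12939 genes that passed the filter on low counts, although FOSB and EGR2 did so at a few CPM (counts scaled to a common library size with TMM factors) or less. EGR2 passed only through the hBMSC-CM cultures with a drug, with a mean of 3.14 CPM over those 18 libraries and 0.53 CPM over the other 24, so its calls in comparisons that involve those cultures are given as values and not as support. AP-1 is a dimer held together by leucine zippers, formed by a FOS family protein with a JUN family protein or by JUN family proteins with each other, and EGR1 and EGR2 are zinc finger factors that bind GC-rich sites. Most of these genes are immediate early genes, which are switched on by growth factor and cytokine signals through the ERK pathway and give short-lived messages. FLT3-ITD, the driver of the leukemia cells used here, is an always active receptor that signals through ERK, PI3K and STAT5, and AP-1 and EGR factors are known for their part in monocyte and macrophage differentiation.

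The libraries came from MOLM-13, a human acute myeloid leukemia (AML) cell line with FLT3-ITD, in 7 conditions of 3 cultures each. Cells in RPMI, a standard medium, received vehicle, 3 nM quizartinib (AC220), a FLT3 inhibitor, or 3 nM quizartinib together with 10 nM everolimus, an mTORC1 inhibitor (combo). Cells in hBMSC-CM, which is RPMI mixed with the conditioned medium of HS-5, a human bone marrow stromal line, received vehicle, quizartinib, everolimus or combo at the same doses, and every treatment lasted 12 h. From each culture the total poly(A) RNA (input) and the poly(A) RNA of heavy polysomes, the sucrose gradient fraction with several ribosomes per message, were sequenced. Cells received cycloheximide, which halts translation, shortly before harvest, and its effect on the levels of these genes was not tested. RPMI with everolimus alone was not analysed here. All conditions share 1 cell line and 1 source of conditioned medium, which limits them as a model of the marrow.

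Total counts were 19.4 to 37.2 M for the 21 input and 21.5 to 38.8 M for the 21 polysome libraries. All 9 myeloid leukemia markers tested passed the filter, whereas 2 of 10 stromal markers (COL1A1 and TAGLN) and 0 of 3 lymphoid markers did, and the stromal markers COL3A1, LUM and THY1 had no count in any input library. The summed stromal markers, here in CPM by library size only, reached 2.61 to 8.44 in the vehicle and everolimus inputs. They reached 11.3 to 46.9 CPM in the quizartinib and combo inputs, so the sum moved with quizartinib. COL1A1 made up most of the highest sums, with a range of 0.16 to 38.8 CPM over the inputs. TAGLN had 1.53 to 6.94 CPM, and COL1A2, the next highest, reached 2.00 CPM. The highest sum was in an RPMI quizartinib input. The part of these markers in the results was not tested. The study describes its replicates as biological, and the labels number them without saying what a number marks. In the 6 conditions other than everolimus alone, libraries with the same number deviated together from their condition means. The 3 everolimus inputs were much closer to each other than any other triplicate, with a mean chi-square of 4.96 to 7.51 per gene between pairs against 30.2 to 224 in the other conditions, but above the value of about 1 that counting noise alone would give. In bulk RNA, fewer cells of a kind and less RNA per cell cannot be told apart.

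Promoters in the RefSeq table (GRCh38) were found for 8 of the 9 genes, as 10 windows of 250 bases upstream of annotated starts, and FOSL1 had no entry. They were searched on both strands for the CArG box, to which serum response factor binds in immediate early promoters. The AP-1 sites TGACTCA and TGACATCA, the ATF/CREB site TGACGTCA and the EGR site GCGTGGGCG were searched too. For STAT factors 1 pattern was searched, with 4 bases between its TTC and GAA ends. The 4 stretches with a match are shown because they hold classical elements of this family, in the direction of the gene with each match in capitals. No matches overlapped each other.
EGR1 (chr5:138465362-138465417, plus strand): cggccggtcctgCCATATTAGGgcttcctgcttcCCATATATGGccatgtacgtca
EGR2 (chr10:62816416-62816449, minus strand): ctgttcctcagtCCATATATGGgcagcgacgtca
JUN (chr1:58784095-58784126, minus strand): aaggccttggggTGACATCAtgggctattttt
JUND (chr19:18281803-18281834, minus strand): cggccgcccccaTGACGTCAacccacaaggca
The CArG boxes of EGR1 began at positions -105 and -83 from the start site, and that of EGR2 at -71 of 1 of its annotated starts. Over 34943 promoters, 1.16% held a CArG box, 1.63% TGACGTCA and 2.37% TGACATCA. TGACTCA, GCGTGGGCG and this STAT pattern, found in 4.22%, 0.721% and 3.06% of promoters, were in none of the windows. STAT sites with another spacing were not searched, so the windows can hold them. These are matches of letters only, and sequence outside the windows of 250 bases was not searched. A gene without a match here can hold such a site elsewhere. The genes lie at chr14:75278826-75282230 (FOS), chr19:45467995-45475179 (FOSB), chr11:65892049-65900573 (FOSL1), chr2:28392448-28417317 (FOSL2), chr1:58776845-58784048 (JUN), chr19:12791486-12793315 (JUNB), chr19:18279694-18281622 (JUND), chr5:138465479-138469303 (EGR1) and chr10:62811996-62819167 (EGR2) of GRCh38.

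Per kilobase of exon, JUND was the most abundant member in RPMI vehicle inputs, at 170 CPM per kb, followed by JUNB at 49.3. EGR1 (15.5 CPM per kb), FOSL1 (14.7) and FOSL2 (13.9) came next, then FOS (7.84), JUN (1.37), FOSB (0.419) and EGR2 (0.134). FOSL1 and FOSL2 overlapped between cultures, and EGR1, at 7.33 to 26.3 CPM per kb, overlapped both of them and also FOS (6.21 to 8.73), so the place of EGR1 among these 4 and the order of FOSL1 and FOSL2 are not set. The highest condition mean exceeded the lowest by 40.7-fold for EGR1, 30.1-fold for FOSL1, 17.5-fold for EGR2 and 17-fold for JUN. It exceeded the lowest by 3.16-fold for JUNB, 2.79-fold for FOS, 2.62-fold for FOSL2, 2.24-fold for FOSB and 1.40-fold for JUND. EGR1 and FOSL1 shared their 2 lowest conditions, RPMI quizartinib and RPMI combo, whose values overlapped each other and lay below every library of the other 5 conditions.

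**Figure D1:**
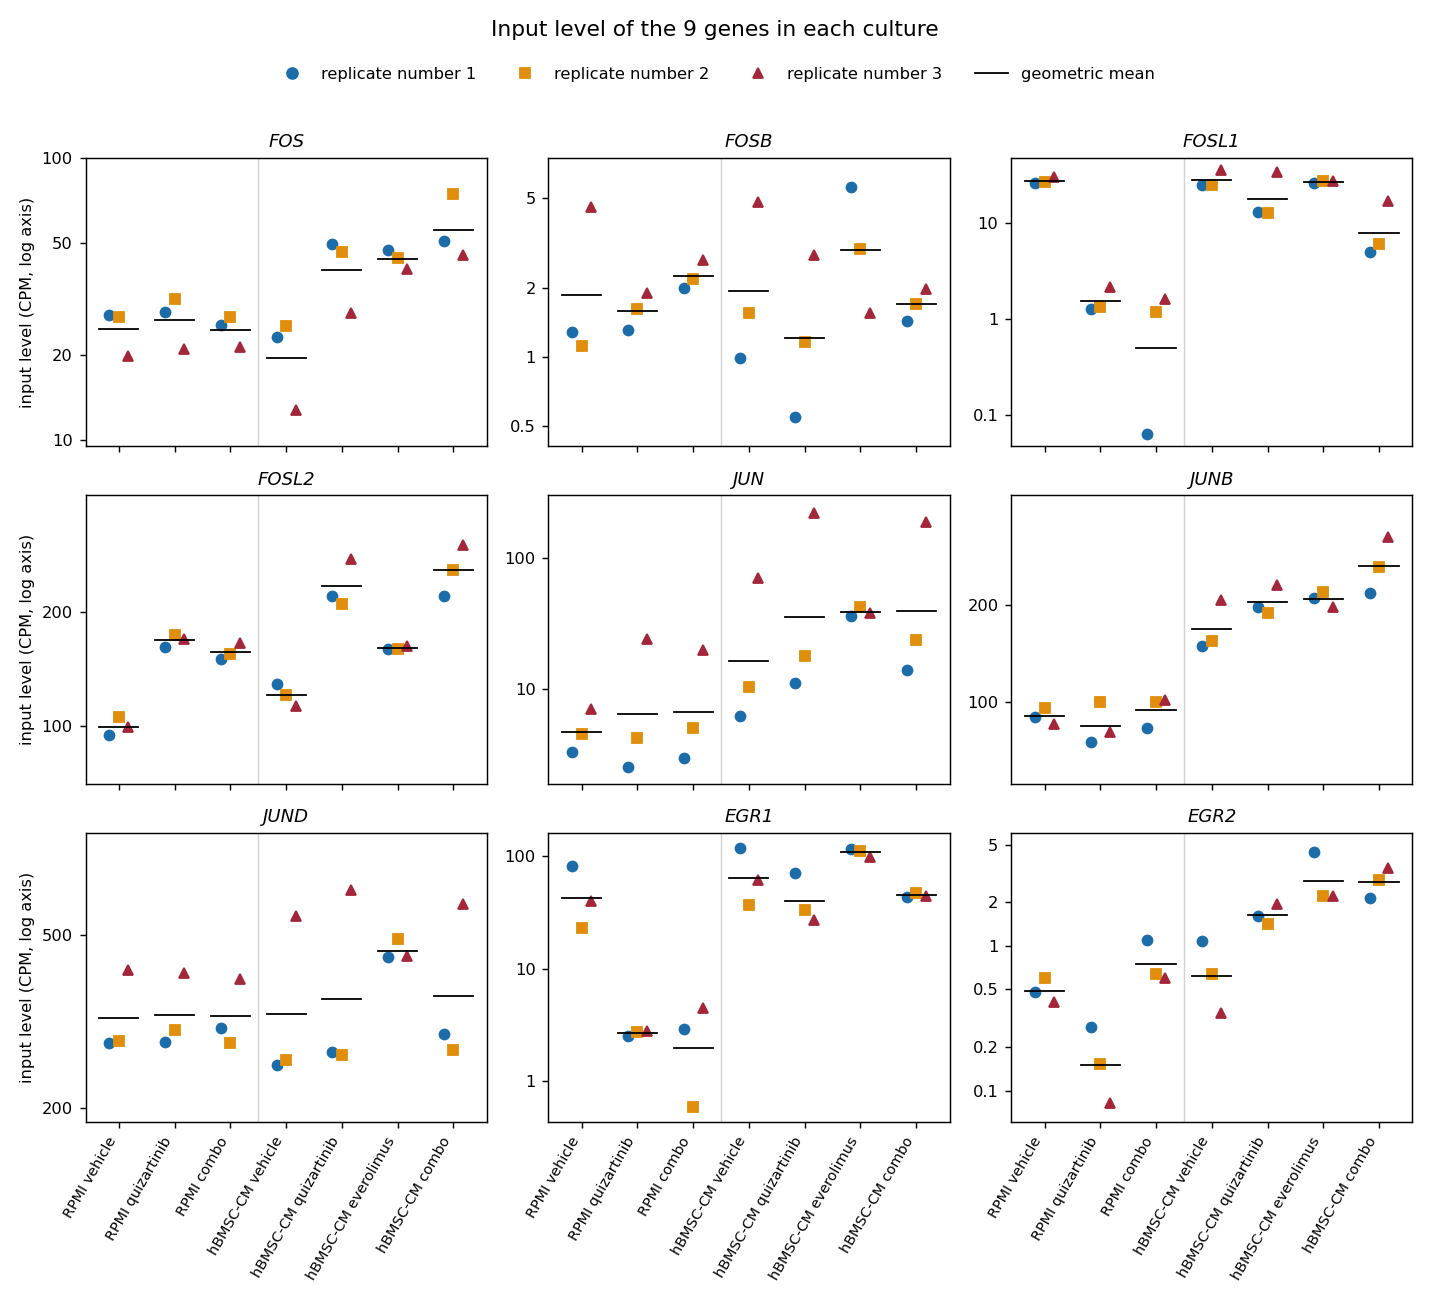
Input level (CPM, log axis) of each of the 9 genes in the 21 cultures, by condition, with the 3 replicate numbers as symbols and the geometric mean as a bar. EGR1 and FOSL1 are lowest in RPMI quizartinib and RPMI combo, and JUN and JUND are highest in replicate number 3 except under everolimus alone.

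Quizartinib was compared with vehicle in each medium to see how FLT3 inhibition changed these genes. In RPMI, FOSL1 and EGR1 fell by more than an order of magnitude and FOSL2 rose, so that 3 of 9 members were called, against 34.6% of all genes. In hBMSC-CM, FOS and FOSL2 rose, 2 of 9 called against 12.3% of all genes, and the lower values of FOSL1 and EGR1 there were not called. The changes of FOSL1 and EGR1 under quizartinib differed between RPMI and hBMSC-CM by a test of the difference itself. Groups without overlap, described below for single genes, were common, at 55.7% of all genes in RPMI and 34.1% in hBMSC-CM.

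FOSL1 encodes FRA-1, a FOS family protein without a transactivation domain of its own that is stabilized by ERK. In RPMI its input level was 26.1, 26.6 and 30.5 CPM under vehicle and 1.26, 1.34 and 2.13 CPM under quizartinib (replicates 1, 2 and 3). These groups did not overlap, and the log2 change was -4.13 (SE 0.61, adjusted p = 1.5e-06, from edgeR's quasi-likelihood fit over all genes, Benjamini-Hochberg adjusted). In hBMSC-CM the same gene stood at 25.1, 25.2 and 35.6 CPM under vehicle and at 13.2, 12.7 and 34.2 CPM under quizartinib. Each quizartinib culture was below the vehicle culture of its number, but the groups overlapped and the change of -0.52 was not called (SE 0.52, edgeR adjusted p = 0.575). The quizartinib effect differed between media by 3.61 log2 units (SE 0.78, edgeR adjusted p = 0.00651), a difference that lay between 2.99 and 3.90 when single cultures were left out.

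EGR1, an immediate early zinc finger factor under the control of serum response factor, had the CArG boxes printed above. It stood at 82.5, 23.0 and 40.5 CPM under vehicle in RPMI, with replicate 1 well above replicate 2, and at 2.52, 2.76 and 2.81 CPM under quizartinib. The groups did not overlap, and the log2 change was -4.17 (SE 0.59, edgeR adjusted p = 6.82e-07). In hBMSC-CM its values were 119, 36.9 and 62.3 CPM under vehicle and 71.5, 33.7 and 27.0 CPM under quizartinib, again lower in each of 3 pairs but overlapping (log2 change -0.72, SE 0.51, edgeR adjusted p = 0.387). The difference between media was 3.45 log2 units (SE 0.75, edgeR adjusted p = 0.00661, 2.83 to 4.0 with single cultures left out). FOSL1 and EGR1 were the members called for this difference, 2 of 9 against 1.96% of all genes. With the replicate number as a block within each fraction FOS joined them (0.92 log2 units, edgeR adjusted p = 0.0109, against 0.91 and 0.258 without the block), in a fit that called 6.77% of all genes.

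FOSL2, which encodes the FOS family protein FRA-2, moved the opposite way from FOSL1. It rose from 94.4, 106 and 99.0 to 162, 174 and 170 CPM in RPMI and from 129, 121 and 113 to 221, 211 and 278 CPM in hBMSC-CM. The groups did not overlap in either medium, with log2 changes of 0.76 (SE 0.16, edgeR adjusted p = 3.70e-04) and 0.97 (SE 0.16, edgeR adjusted p = 1.74e-04). The difference between media was 0.21 (SE 0.23, edgeR adjusted p = 0.924).

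FOS, the founding member of the family, was at 27.8, 27.3 and 19.8 CPM under vehicle and 28.4, 31.8 and 21 CPM under quizartinib in RPMI, where the groups overlapped, with a change of 0.12 (SE 0.24, edgeR adjusted p = 0.755). In hBMSC-CM it rose from 23.1, 25.3 and 12.8 to 49.8, 46.3 and 28.2 CPM, without overlap and in each of 3 pairs (log2 change 1.02, SE 0.25, edgeR adjusted p = 0.00547). Without hBMSC-CM vehicle replicate 3, the lowest library, the rise was 0.77 and was no longer called. It was also not called when only the 2 groups compared entered the fit (edgeR adjusted p = 0.0711).

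EGR2, a zinc finger factor of the monocyte lineage, overlaps another annotated gene on its own strand and was near the detection limit in RPMI, with 19, 21 and 12 counts under vehicle and 10, 6 and 3 counts under quizartinib. In hBMSC-CM its level was 1.08, 0.638 and 0.341 CPM under vehicle and 1.61, 1.41 and 1.95 CPM under quizartinib. The groups did not overlap in either medium, lower with quizartinib in RPMI (-1.53, SE 0.80, edgeR adjusted p = 0.137) and higher in hBMSC-CM (1.26, SE 0.70, edgeR adjusted p = 0.250), and neither change was called. FOSB, JUNB and JUND gave log2 changes between -0.73 and 0.27 in the 2 media, with overlapping groups and no call.

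**Figure D2:**
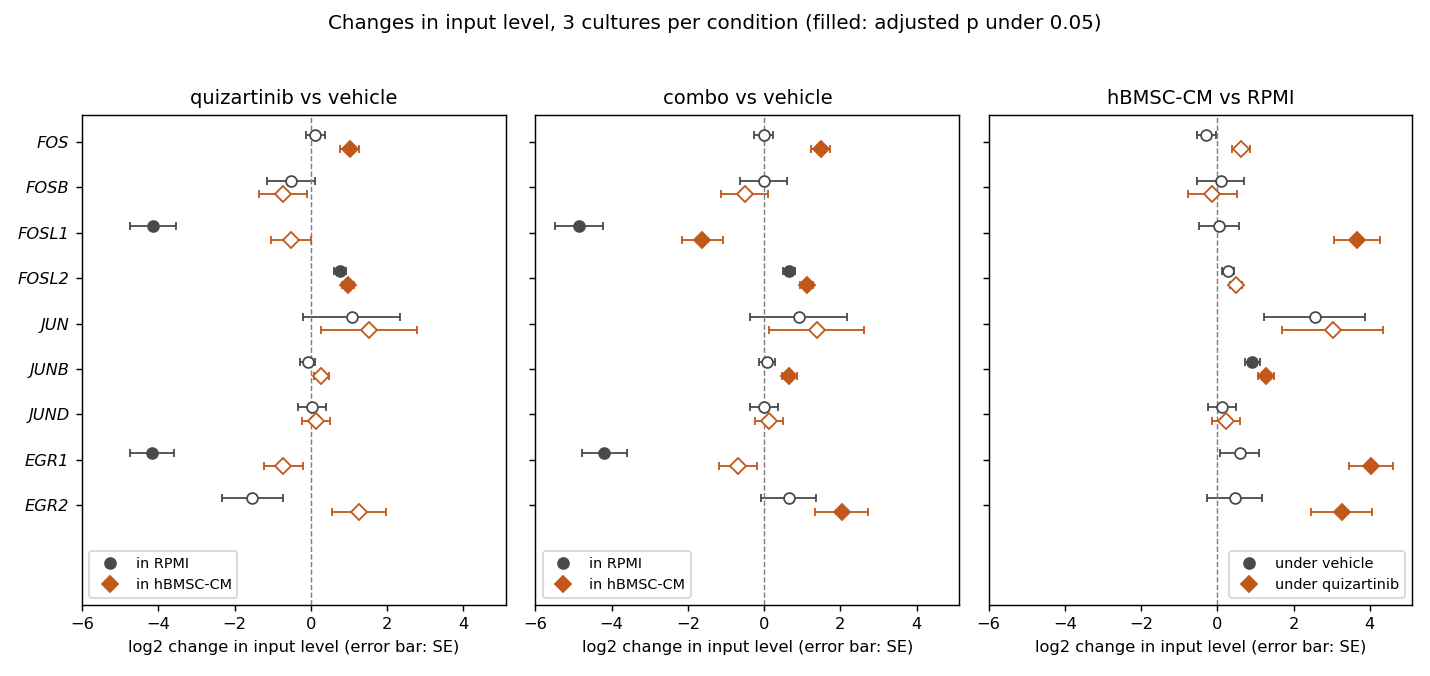
Log2 change in input level of each gene with its SE, from edgeR over all genes, 3 cultures per condition, for quizartinib and combo against vehicle in each medium and for hBMSC-CM against RPMI under vehicle and quizartinib. Filled symbols have an adjusted p under 0.05. FOSL1 and EGR1 lie near -4 in RPMI and near 4 for hBMSC-CM against RPMI under quizartinib.

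The media were then compared within each treatment. Under vehicle, JUNB was higher in hBMSC-CM and no other member was called, 1 of 9 against 1.51% of all genes. Under quizartinib FOSL1, JUNB, EGR1 and EGR2 were higher in hBMSC-CM, 4 of 9 against 8.16% of all genes called in either direction and 6.11% called higher, or 3 leaving aside EGR2. Under combo the called members were FOS, FOSL1, FOSL2, JUNB and EGR1, 5 of 9 against 5.36% called and 4.11% called higher, and all 5 were higher. The comparisons in each medium share their libraries with the drug comparisons above.

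JUNB, an AP-1 subunit that is also a target of STAT signaling, was at 89.7, 95.8 and 85.1 CPM in RPMI vehicle and at 149, 155 and 207 CPM in hBMSC-CM vehicle. The groups did not overlap, and the log2 difference was 0.92 (SE 0.20, edgeR adjusted p = 0.0091). This call was lost when hBMSC-CM vehicle replicate 3 (0.79), RPMI vehicle replicate 1 (0.91) or RPMI vehicle replicate 3 (0.88) was left out, with the direction kept. Under quizartinib JUNB stood at 74.8, 99.6 and 80.2 CPM in RPMI and at 198, 188 and 230 CPM in hBMSC-CM, a difference of 1.27 (SE 0.20, edgeR adjusted p = 3.32e-05). Under combo the values were 83.0, 100 and 101 against 218, 263 and 324 CPM, and the difference was 1.5 (SE 0.21, edgeR adjusted p = 2.84e-06). JUNB was thus higher in hBMSC-CM under all 3 treatments, with no overlap between media in any of them. The media did not overlap for 16.1% of all genes under vehicle, 29.8% under quizartinib and 21.5% under combo.

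FOSL1 and EGR1 did not differ detectably between media under vehicle, with log2 differences of 0.05 (SE 0.52) and 0.58 (SE 0.51). Under quizartinib they were higher in hBMSC-CM by 3.66 (SE 0.60, edgeR adjusted p = 4.11e-05) and 4.03 (SE 0.58, edgeR adjusted p = 6.25e-06). EGR2 was higher by 3.26 (SE 0.79, edgeR adjusted p = 0.00538), from the 10, 6 and 3 counts given above to 50, 51 and 44 counts. EGR2 had passed the filter through the higher of these groups, and with no filter on low counts the difference was 3.23 (SE 0.67, edgeR adjusted p = 1.15e-04). The fit with no filter also gave JUN, which varied widely between replicates, a much smaller SE (values below). Its adjusted p for EGR2 is therefore not independent support. FOS was 1.20 higher in hBMSC-CM under combo (SE 0.25, edgeR adjusted p = 0.00127) and FOSL2 was 0.73 higher (SE 0.16, edgeR adjusted p = 0.00297), although FOSL2 lost its call with no filter on low counts (edgeR adjusted p = 0.0852).

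The replicate block added members to these comparisons. Under quizartinib 7 of 9 were called with a block within each fraction, the additions being FOS (0.60, edgeR adjusted p = 0.00939), FOSL2 (0.48, edgeR adjusted p = 0.0102) and JUN (2.62, edgeR adjusted p = 0.0117), and the same fit called 17.6% of all genes. Under combo 7 of 9 were called, with JUN (2.63, edgeR adjusted p = 0.0166) and EGR2 (1.94, edgeR adjusted p = 0.0422) added, against 10.6% of all genes in that fit. Both counts include EGR2, whose calls here are values and not support. Under vehicle the block added no member, and 4.52% of all genes were called.

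Adding everolimus to quizartinib gave no called member in either medium. In RPMI 0 of 9 members were called by edgeR, limma voom or DESeq2, against 0.00773% of all genes, and 1 had an unadjusted p under 0.05 (1.33% of all genes), which was EGR2 (log2 difference 2.18, SE 0.79, edgeR adjusted p = 1). In hBMSC-CM 0 of 9 were called by the same tools, against 0.24%, and the 1 member with an unadjusted p under 0.05 (6.1% of all genes) was FOSL1, at 4.93, 6.05 and 17 CPM under combo. It was lower than under quizartinib in each of 3 pairs (log2 difference -1.10, SE 0.53, edgeR adjusted p = 0.804), and with the block within each fraction this difference was called (-1.13, edgeR adjusted p = 0.0453), as were 2.94% of all genes.

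Against vehicle, the combo in RPMI gave the same called members as quizartinib alone, 3 of 9 against 37.4% of all genes. FOSL1 stood at 0.0628, 1.17 and 1.61 CPM (log2 change -4.86, SE 0.64, edgeR adjusted p = 1.78e-07), where the lowest library had 2 counts. EGR1 stood at 2.92, 0.586 and 4.52 CPM (log2 change -4.19, SE 0.59, edgeR adjusted p = 5.73e-07), and FOSL2 at 151, 156 and 166 CPM (0.66, SE 0.16, edgeR adjusted p = 0.0015).

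In hBMSC-CM 5 of 9 members were called for the combo, or 4 leaving aside EGR2, against 26.5% of all genes. FOS rose to 50.7, 74.5 and 45.6 CPM (log2 change 1.48, SE 0.25, edgeR adjusted p = 2.79e-05) and FOSL2 to 221, 259 and 303 CPM (1.11, SE 0.16, edgeR adjusted p = 4.01e-06). JUNB rose by 0.66 (SE 0.20, edgeR adjusted p = 0.0141). EGR2 stood at 2.14, 2.85 and 3.44 CPM, a fitted difference of 2.03 (SE 0.70, edgeR adjusted p = 0.0288) in a gene that passed the filter through this and the other drug conditions, and of 2.05 with no filter on low counts (SE 0.60, edgeR adjusted p = 0.0101). The fit with no filter is not independent support for EGR2, for the reason given above. FOSL1 fell by 1.62 log2 units (SE 0.54, edgeR adjusted p = 0.0226). None of these 5 overlapped with vehicle, which held for 5 of 9 members and 43.5% of all genes. The calls of FOS and FOSL2 held with every single culture left out. FOSL1 lost its call without hBMSC-CM combo replicate 1 (-1.30), combo replicate 2 (-1.39) or vehicle replicate 3 (-1.45), JUNB without combo replicate 3 (0.50), vehicle replicate 1 (0.57) or vehicle replicate 2 (0.59), and EGR2 without combo replicate 2 (2.02), combo replicate 3 (1.86), vehicle replicate 2 (1.98) or vehicle replicate 3 (1.68). EGR1 was at 43.4, 47.5 and 44.5 CPM, an overlap with the wide vehicle group (log2 change -0.69, SE 0.51, edgeR adjusted p = 0.343).

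Under everolimus alone in hBMSC-CM, FOS was higher than under vehicle, at 47.3, 44.3 and 40.5 CPM (log2 change 1.11, SE 0.25, edgeR adjusted p = 0.0278), the 1 member of 9 called, against 0.41% of all genes. The call was lost without any 1 of the 3 everolimus cultures or without vehicle replicate 1 or 3, with the change between 0.84 and 1.21. Other members lay above all vehicle cultures without a call, FOSL2 at 160, 160 and 163 CPM (0.41, SE 0.16, edgeR adjusted p = 0.391) and EGR2 at 4.43, 2.19 and 2.22 CPM (2.10, SE 0.70, edgeR adjusted p = 0.228). These 2 groups did not overlap for 27.7% of all genes. With the numbers of the other cultures as a block and the everolimus cultures unblocked, 4 members were called, FOS together with FOSL2 (0.41, edgeR adjusted p = 0.0229), JUND (0.47, edgeR adjusted p = 0.0191) and EGR2 (2.15, edgeR adjusted p = 0.0161), against 12.2% of all genes in that fit. The call of EGR2 is again a value and not support. EGR1 was at 116, 112 and 98.3 CPM under everolimus, its highest condition, inside the range of the vehicle cultures. The everolimus inputs were closer to each other than those of other conditions and did not share their replicate-number pattern. In every comparison with everolimus alone, the drug therefore cannot be told apart from another difference between these cultures and the rest.

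The combo differed from everolimus alone in FOSL2, 1 of 9 members against 11.1% of all genes, with a log2 difference of 0.70 (SE 0.16, edgeR adjusted p = 0.00353) that was no longer called with no filter on low counts (edgeR adjusted p = 0.0674). Groups did not overlap for 45.9% of all genes in this comparison. FOSL1 and EGR1 were lower under combo in every library, at -1.53 (SE 0.54, edgeR adjusted p = 0.059) and -1.27 (SE 0.51, edgeR adjusted p = 0.111). Both were called with the replicate number as a block and the everolimus cultures unblocked, at -1.71 (edgeR adjusted p = 1.68e-05) and -1.20 (edgeR adjusted p = 0.0315), in a fit that called 33.5% of all genes. For the difference between the quizartinib effects with and without everolimus, 0 of 9 members were called by edgeR, limma voom or DESeq2 and 0 had an unadjusted p under 0.05, against 0.0% and 1.65% of all genes. FOSL1 gave the value -1.01 (SE 0.74) and FOS -0.65 (SE 0.34).

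JUN and JUND differed more between replicate numbers than between treatments. JUN, the partner with which FOS proteins form the classical AP-1 dimer, had 3.28, 4.57 and 7.03 CPM in RPMI vehicle, 2.52, 4.25 and 24.3 CPM in RPMI quizartinib and 2.98, 5.06 and 19.8 CPM in RPMI combo. In hBMSC-CM it had 6.19, 10.3 and 70.7 CPM under vehicle, 11.1, 17.8 and 224 CPM under quizartinib and 13.9, 23.6 and 189 CPM under combo. Replicate 3 was the highest library of all 6 conditions. Under everolimus alone the 3 cultures lay close together, at 35.9, 42.6 and 38.2 CPM. In the 6 other conditions replicate 3 exceeded its condition mean by 0.57 to 2.66 log2 units in input and by 0.72 to 2.54 in polysome RNA.

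With the filter on low counts, no comparison of treatments or media called JUN without a block. With no filter, the fit gave JUN an SE of 0.26 to 0.28 in place of 1.24 to 1.33 and called it in 8 of 11 input comparisons. Its log2 change under quizartinib was 1.07 in RPMI (SE 1.28, edgeR adjusted p = 0.557) and 1.53 in hBMSC-CM (SE 1.26, edgeR adjusted p = 0.473). It turned to -0.55 and -1.01 without replicate 3 of the quizartinib group. Vehicle replicate 3, the highest vehicle library in each medium, stayed in those fits, so they did not compare the same replicate numbers. In RPMI replicates 1 and 2 were lower with quizartinib and replicate 3 was higher, while in hBMSC-CM each of 3 pairs was higher. Between media JUN was higher in hBMSC-CM in each of 3 pairs under vehicle (2.56, SE 1.32), quizartinib (3.02, SE 1.33) and combo (3.03, SE 1.33), with edgeR adjusted p of 0.722, 0.202 and 0.292. The last 2 of these were the ones called with the block.

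JUND, the most constant JUN protein and an antagonist of proliferation in many cells, had 282, 286 and 415 CPM in RPMI vehicle and 251, 258 and 550 CPM in hBMSC-CM vehicle. Quizartinib gave 284, 302 and 409 CPM in RPMI and 270, 265 and 631 CPM in hBMSC-CM, and combo gave 306, 282 and 396 and 297, 272 and 587 CPM. Replicate 3 was again the highest in all 6 conditions, whereas the everolimus cultures had 445, 488 and 446 CPM. No comparison of treatments or media called JUND without a block. Its log2 changes lay between -0.26 and 0.38 over the 11 comparisons of 2 conditions, with an SE of 0.37 for each.

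FOS went the other way. Its replicate 3 was the lowest input library in the 6 conditions, 0.20 to 0.61 log2 units below the condition mean. Over the 21 inputs, deviations from the condition means correlated at 0.94 between JUN and JUND, at -0.91 between FOS and JUND and at -0.82 between FOS and JUN. These are descriptions over libraries that share conditions and replicate numbers. What replicate number 3 stands for is not given in the labels.

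**Figure D3:**
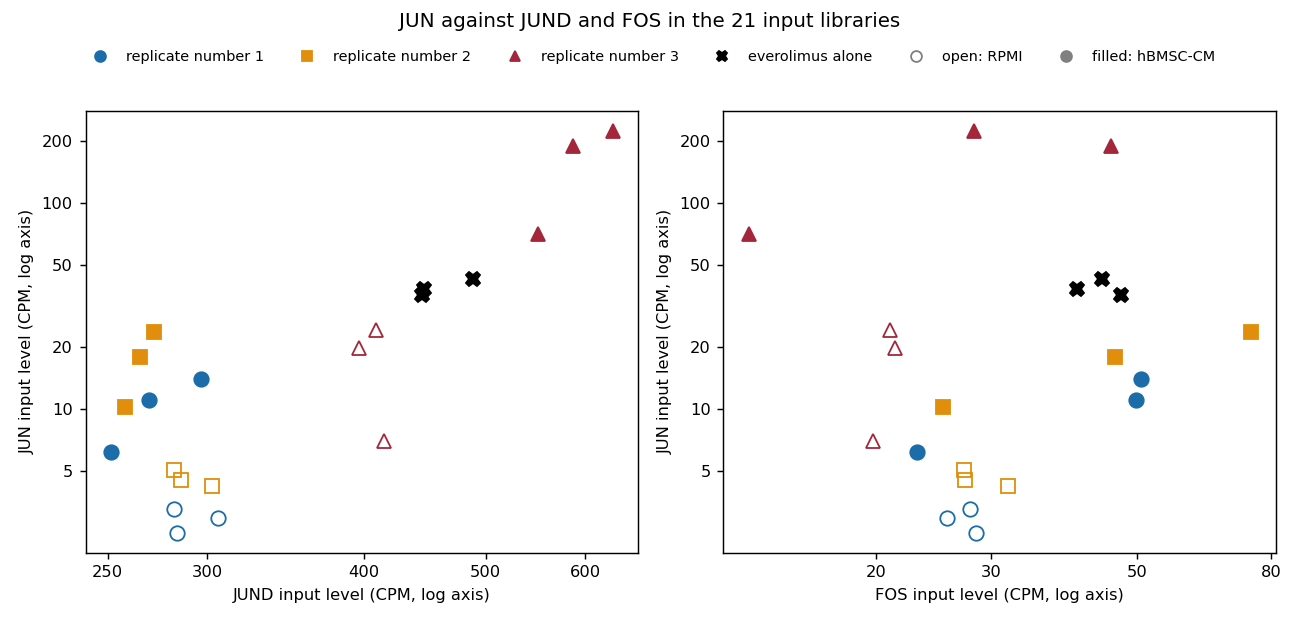
JUN input level against JUND (left) and against FOS (right), in CPM on log axes, for the 21 input libraries, with symbols by replicate number, crosses for everolimus alone, open symbols for RPMI and filled for hBMSC-CM. Replicate 3 has JUND at 396 CPM or more in every condition, and JUN reaches 224 CPM there.

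The polysome level was set against the input level of the same culture as polysome minus input, on the log2 CPM scale. Within the conditions, JUNB, FOSL2, JUND and FOS were higher in heavy polysomes than in input in 21 of 21 cultures each, and all 4 were called in each of the 7 conditions. Called members numbered 4 of 9 in 6 conditions and 5 of 9 in RPMI quizartinib, where EGR2 was added, and every called member was higher in polysomes. The background was 65.4% of all genes in RPMI vehicle, 57.9% in RPMI quizartinib, 59.3% in RPMI combo, 63.6% in hBMSC-CM vehicle, 58.7% in hBMSC-CM quizartinib, 58.6% in hBMSC-CM everolimus and 63.0% in hBMSC-CM combo, so a call in itself is common. Genes called higher made up 31.5%, 31.2%, 31.7%, 29.6%, 29.7%, 27.9% and 32.9% in the same order. In direction the calls of all genes were close to balanced, with 42.1% higher and 44.1% lower for the mean of the 7 conditions.

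JUNB had the highest fitted polysome minus input of the 9 genes for the mean of the 7 conditions, with 1.22 to 2.24 over the 21 cultures, although other members exceeded it in some cultures and the fitted value of EGR2 did so in RPMI quizartinib. In RPMI vehicle it was 2.07, 1.80 and 1.64, in hBMSC-CM vehicle 1.68, 1.91 and 1.36, and in hBMSC-CM combo 2.24, 1.98 and 1.58. Its fitted value over the 7 conditions was 1.76 (SE 0.08, edgeR adjusted p = 1.33e-20), between 1.64 and 1.92 in the single conditions. The JUNB locus overlaps exons of HOOK2 on the opposite strand, and whether counting used strand is not stated.

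FOSL2 followed, with 0.75 to 1.65 over the cultures and 1.18 over the conditions (SE 0.06, edgeR adjusted p = 9.06e-19). Under RPMI combo it was 1.65, 1.47 and 1.49, above the 1.26, 0.75 and 1.07 of RPMI vehicle without overlap, a difference of 0.51 that was not called (SE 0.23, edgeR adjusted p = 0.215). These 2 conditions did not overlap in polysome minus input for 24.6% of all genes. JUND gave 1.03 (SE 0.14, edgeR adjusted p = 2.23e-08), with replicate 1 above replicate 2 in every condition. Leaving out 1 culture ended the call of JUND in its condition for 13 of the 21 cultures, in every condition at least once, although its value then stayed between 0.69 and 1.10. Its call was also lost in 5 of the 7 conditions with a stricter filter (mean of 10 CPM), with values of 0.70 to 0.85 and edgeR adjusted p of 0.0525 to 0.104, and held in RPMI vehicle and hBMSC-CM everolimus. FOS gave 0.91 (SE 0.09, edgeR adjusted p = 3.54e-11), from 0.27 in replicate 1 of hBMSC-CM vehicle to 1.51 in replicate 1 of hBMSC-CM combo. Its call was lost without RPMI vehicle replicate 1 (0.71) or 3 (0.38), hBMSC-CM quizartinib replicate 2 (0.53) or 3 (0.48), or hBMSC-CM vehicle replicate 3 (0.52), and with the stricter filter in RPMI vehicle (0.42, edgeR adjusted p = 0.111) and hBMSC-CM quizartinib (0.35, edgeR adjusted p = 0.193). With only the groups compared in the fit, the calls in hBMSC-CM quizartinib were lost for FOS (edgeR adjusted p = 0.139) and JUND (0.0593), and that in hBMSC-CM vehicle for JUND (0.0522).

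FOSL1 (0.60, SE 0.21, edgeR adjusted p = 0.00742) and FOSB (0.54, SE 0.23, edgeR adjusted p = 0.0335) were called over the 7 conditions together and not in single ones, higher in 15 and 17 of 21 cultures, so that 6 of 9 members were called for the mean, against 86.2% of all genes. FOSL1 lost this call with the stricter filter (0.38, edgeR adjusted p = 0.0891), which leaves out FOSB. The call of FOSB was lost, at 0.40 to 0.52, without replicate 1 or 3 of hBMSC-CM combo, hBMSC-CM everolimus or RPMI quizartinib, replicate 2 or 3 of RPMI combo, or replicate 1 of hBMSC-CM quizartinib or hBMSC-CM vehicle.

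EGR1 and EGR2 gave no call for the mean of the conditions, at -0.003 (SE 0.20, edgeR adjusted p = 0.992) and 0.32 (SE 0.27, edgeR adjusted p = 0.263), nor did JUN at 0.68 (SE 0.47, edgeR adjusted p = 0.176). EGR1 ranged most widely within vehicle, with -1.38, -0.96 and 0.35 in RPMI and -2.02, -0.81 and 0.42 in hBMSC-CM, replicate 3 alone being above 0. Under combo all 6 values were above 0, at 0.28, 1.77 and 0.23 in RPMI and 0.75, 0.08 and 0.52 in hBMSC-CM, and under everolimus they were 0.45, 0.52 and 0.34. For hBMSC-CM vehicle the fitted value of EGR1 was -0.71 (SE 0.51, edgeR adjusted p = 0.223), 0.08 without replicate 1, and -1.67 without replicate 3, which was then called (edgeR adjusted p = 0.0171). The call of EGR2 in RPMI quizartinib (1.98, SE 0.79, edgeR adjusted p = 0.0326) rests on the 10, 6 and 3 input counts given above and was lost without any 1 of the 3 cultures.

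**Figure D4:**
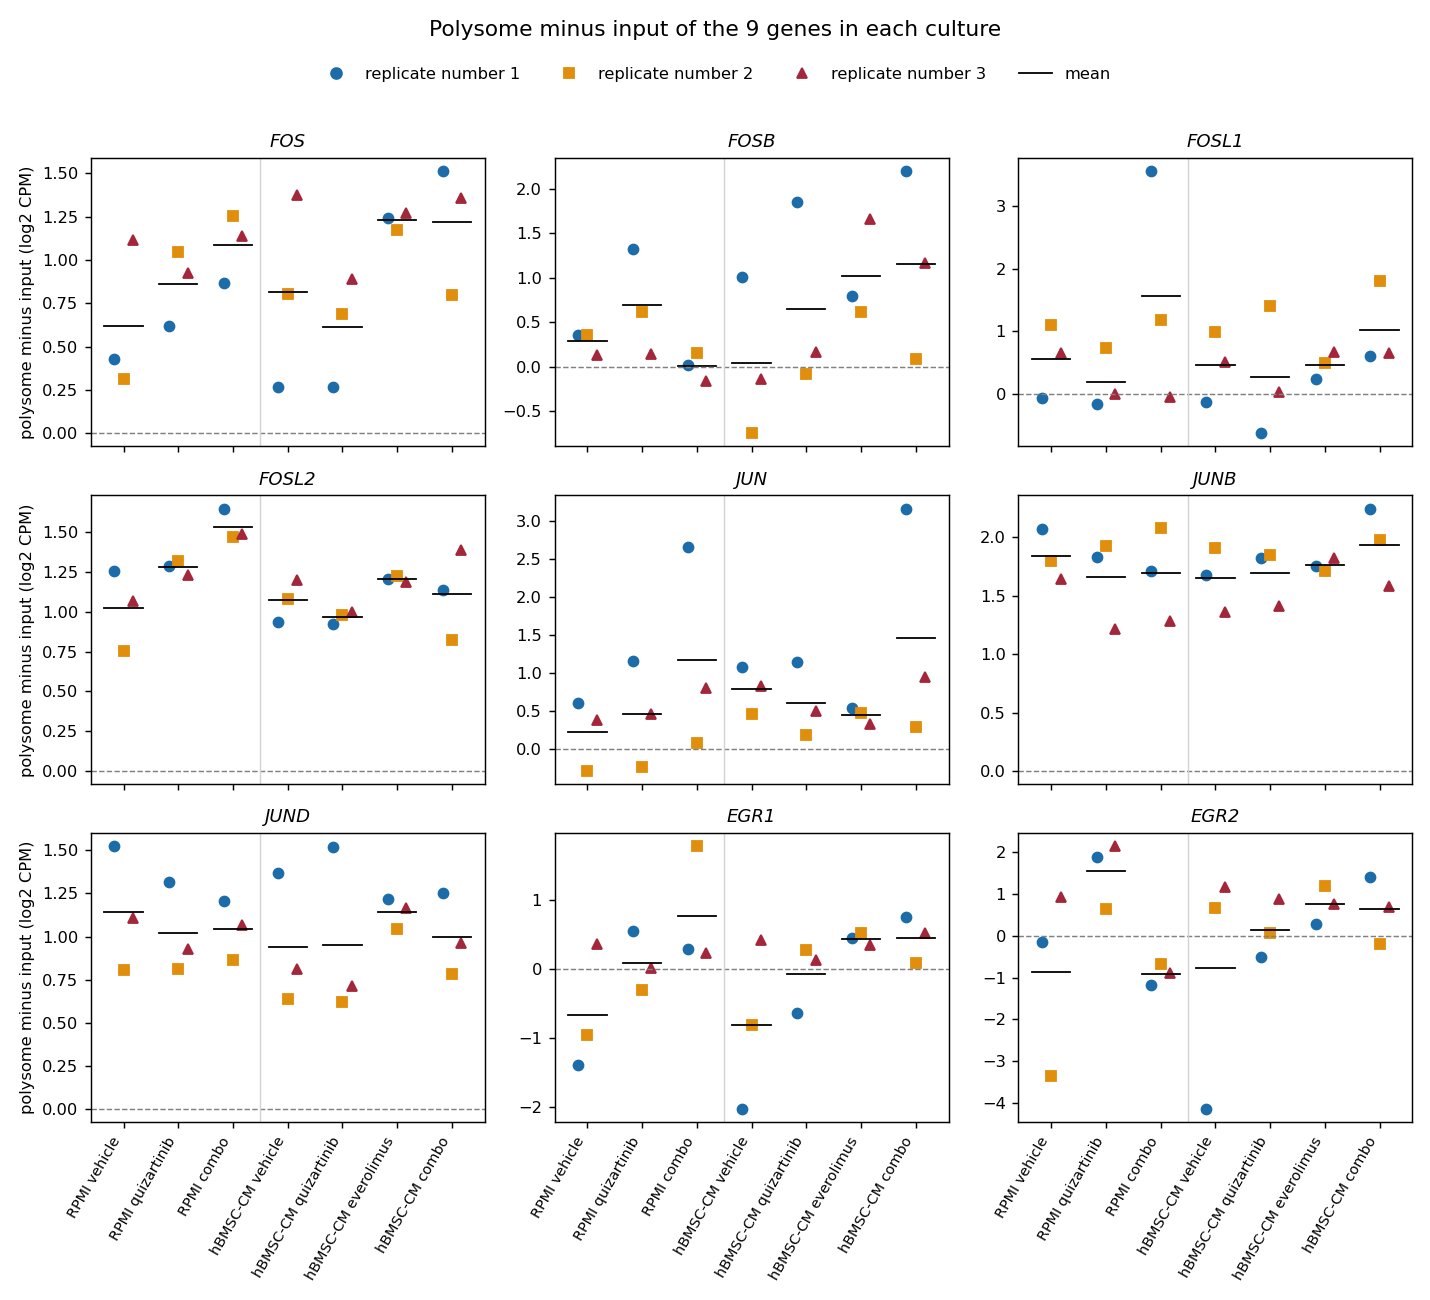
Polysome minus input (log2 CPM) of each gene in each culture, by condition, with the replicate numbers as symbols, the mean as a bar and 0 as a dashed line. JUNB lies between 1.22 and 2.24 in every culture, and FOS, FOSL2 and JUND are above 0 throughout, while EGR1 and EGR2 lie on both sides.

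JUN was higher in polysomes in 19 of 21 cultures. Its largest values were in replicate 1 under combo, 2.65 in RPMI and 3.16 in hBMSC-CM, where replicates 2 and 3 had 0.08 and 0.80, and 0.29 and 0.94. With each culture as a block, JUN was called for the mean of the conditions (0.73, SE 0.16, edgeR adjusted p = 2.68e-04), in RPMI combo (1.15, edgeR adjusted p = 0.0303) and in hBMSC-CM combo (1.42, edgeR adjusted p = 0.00824). With that block FOSL1 and FOSB were also called in hBMSC-CM combo (1.02 and 1.19, edgeR adjusted p = 0.0364 and 0.0239), which made 7 of 9 there against 64.8% of all genes in that fit. The block also added FOSB in hBMSC-CM everolimus (1.03, edgeR adjusted p = 0.0415) and FOSL1 in RPMI combo (1.25, edgeR adjusted p = 0.0362), where 61.5% and 60.7% of all genes were called, whereas EGR2 in RPMI quizartinib was not (edgeR adjusted p = 0.0709).

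Scaling bears on these values. With library size only in place of TMM factors, the median polysome minus input of all genes was -0.43 for the mean of the conditions, against -0.03, and the share of higher genes among the calls was 36.5% against 48.9%. JUNB and FOSL2 were called in all 7 conditions under this scaling. FOS then gave 0.06 in RPMI vehicle, 0.53 in RPMI quizartinib, 0.14 in hBMSC-CM quizartinib and 0.23 in hBMSC-CM vehicle without a call, and JUND gave 0.46 to 0.82 without a call in any condition. FOSL1 (0.19) and FOSB (0.15) were not called for the mean either.

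Between conditions, polysome minus input changed for 0 of 9 members in each of the 13 comparisons, by edgeR, limma voom and DESeq2 alike. At an unadjusted p under 0.05 there was 1 member in each of 3 comparisons, all in RPMI. These were EGR2 for quizartinib against vehicle (2.25, SE 1.10, edgeR adjusted p = 0.319), FOSL2 for combo against vehicle (the value given above) and EGR2 for combo against quizartinib (-3.04, SE 1.09, edgeR adjusted p = 1). The background was 1.55% of all genes for quizartinib against vehicle in RPMI, 4.99% for combo against vehicle in RPMI, 0.0232% for combo against vehicle in hBMSC-CM and 0.0% in the other 10 comparisons. An unadjusted p under 0.05 was found for 15.6%, 19% and 0.719% of all genes in the 3 RPMI comparisons (quizartinib against vehicle, combo against vehicle, combo against quizartinib). In hBMSC-CM it was found for 2.23% (quizartinib), 4.43% (everolimus) and 4.34% (combo) against vehicle, 2.11% for combo against quizartinib and 6.76% for combo against everolimus. Between media it was found for 1.63% under vehicle, 3.48% under quizartinib and 1.53% under combo, and for the differences between effects for 4.82% (medium by quizartinib) and 3.76% (quizartinib by everolimus).

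The neighbors of the family were described from 5 gene lists, also chosen with earlier results of these data known. The shares beside their counts again give a scale and no test. Of 10 AP-1 partners that passed the filter, 3 were called for quizartinib in RPMI, a share near the 34.6% of all genes. There BATF3, a small dimer partner of JUN proteins, fell by 5.01 log2 units (SE 0.53, edgeR adjusted p = 2.77e-09) and MAFF and ATF7 rose by 1.47 (SE 0.48, edgeR adjusted p = 0.0162) and 1.02 (SE 0.24, edgeR adjusted p = 9.80e-04). Fitted with replicate number as a block, 6 of the 10 were called, against 42.3% of all genes. The median of the list was 0.34 against 0.08 for all genes. BATF3 was 0.457 ± 0.326 CPM under quizartinib and 14.9 ± 1.77 CPM under vehicle (SD, n = 3 each). Its quizartinib effect differed between media by 2.54 (SE 0.65, edgeR adjusted p = 0.029), in the same direction as that of FOSL1 and EGR1.

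Of 3 EGR family members and partners, 1 was called for quizartinib in RPMI, a share near the 34.6% of all genes. This was WT1, a zinc finger factor with a related DNA-binding domain, which fell by 1.47 log2 units (SE 0.26, edgeR adjusted p = 2.71e-05). The list's median was -0.03. Of 6 serum response factor and ternary complex genes, 1 was called there, a share below that of all genes. This was MRTFA, a coactivator of serum response factor, which rose by 0.71 (SE 0.20, edgeR adjusted p = 0.00484), with a list median of -0.10. SRF itself gave -0.32 (SE 0.33, edgeR adjusted p = 0.489).

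Of 19 other immediate early genes, 11 were called for quizartinib in RPMI, 8 higher and 3 lower, against 34.6% of all genes called, 16.6% higher and 18% lower. The median was 0.64, against 0.08 for all genes. BTG2, an antiproliferative gene, rose by 2.68 (SE 0.32, edgeR adjusted p = 4.51e-08) and GADD45B, a stress response gene, by 1.40 (SE 0.48, edgeR adjusted p = 0.0226), whereas the ERK phosphatase DUSP2 (-2.77, SE 0.41, edgeR adjusted p = 1.91e-06) and the stress response gene IER3 (-2.41, SE 0.34, edgeR adjusted p = 7.56e-07) fell. IER3 was also higher in hBMSC-CM than in RPMI under quizartinib, by 3.83 (SE 0.36, edgeR adjusted p = 1.65e-09), and its quizartinib effect differed between media by 2.56 (SE 0.46, edgeR adjusted p = 9.14e-04). Between media under quizartinib 8 of the 19 were called, 6 higher and 2 lower in hBMSC-CM, against 8.16% of all genes called, 6.11% higher and 2.05% lower, the higher ones including NR4A1 (2.43, edgeR adjusted p = 0.0014), DUSP1 (2.04, edgeR adjusted p = 0.00265) and ZFP36L1 (1.63, edgeR adjusted p = 4.82e-04).

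Of 14 genes known as targets of AP-1 or EGR1, 5 were called for quizartinib in RPMI, a share near the 34.6% of all genes. HMOX1, the heme oxygenase, rose by 3.71 (SE 1.02, edgeR adjusted p = 0.00454), and the cytokine TNF (-3.14, SE 0.37, edgeR adjusted p = 2.77e-08), the gelatinase MMP9 (-3.33, SE 1.07, edgeR adjusted p = 0.014) and the urokinase receptor PLAUR (-1.10, SE 0.23, edgeR adjusted p = 2.07e-04) fell. HMOX1 and MMP9 were low and variable in RPMI vehicle, at 0.564 ± 0.616 and 1.02 ± 0.979 CPM (SD, n = 3 each). Between media under quizartinib 8 of the 14 were called and all 8 were higher in hBMSC-CM, against 8.16% of all genes called and 6.11% called higher, with a median of 0.87 against -0.03 for all genes. Under vehicle 3 of the 14 were already called, all higher in hBMSC-CM, against 1.51% of all genes called and 1.3% called higher, MMP9 by 4.17 (SE 0.84, edgeR adjusted p = 0.00285), HBEGF by 2.26 (SE 0.42, edgeR adjusted p = 0.00109) and PHLDA1 by 1.74 (SE 0.35, edgeR adjusted p = 0.00282). Under quizartinib MMP9 led with 6.38 (SE 1.04, edgeR adjusted p = 4.11e-05), from 0.0982 ± 0.0193 to 8.55 ± 7.88 CPM (SD, n = 3 each). HBEGF, an EGF receptor ligand, was 2.83 higher (SE 0.43, edgeR adjusted p = 1.27e-05), PHLDA1 1.93 (SE 0.35, edgeR adjusted p = 1.53e-04) and PLAUR 1.63 (SE 0.23, edgeR adjusted p = 3.76e-06). PLAUR was the 1 gene of this list called for the difference between media in the quizartinib effect (1.16, SE 0.32, edgeR adjusted p = 0.0434).

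Of all these listed genes, 1 was called in polysome minus input between conditions, TRIB1, which encodes a pseudokinase, for combo against vehicle in RPMI. Its direction was toward polysomes.

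For each member, the 2 genes most like it over the 21 input libraries were found by the Pearson correlation of log2 CPM, leaving out genes whose mean was under 5 CPM. FOSL1 was most like TMC8 (r = 0.98) and HIVEP3 (0.96), and EGR1 most like ATP2A3 (0.96) and MYC (0.96). JUNB was most like METRNL (0.97) and SOCS3 (0.95), and FOSL2 most like GAA (0.96) and AC004847.1 (0.96). JUN was most like CD63 (0.95) and TRABD (0.95), JUND most like CDC34 (0.93) and PMS2P3 (0.93), and FOS most like PTPRE (0.90) and ZNFX1 (0.88). EGR2 was most like TUBGCP2 (0.88) and MNT (0.85), and FOSB most like REXO5 and CWF19L2 (both 0.78). No member was among the genes most like another. With the Spearman correlation the 2 genes changed, in part or in full, for every member but EGR2. For EGR1 they were then ETV5 (0.93) and MAP3K20 (0.89), with MYC at 0.85. These correlations follow the condition means and the replicate numbers that the libraries share.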

How the data were processed

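Poly(A) RNA of the input and of the heavy polysomes, collected after cycloheximide, was sequenced in pairs on a NovaSeq6000 in 42 libraries. The authors trimmed the reads with BBDuk (reads under 50 bases were removed), aligned them to hg38 with Ensembl release 96 annotation, and deposited whole-number counts per gene from STAR 2.6.0a, and the strand setting of the counting is not given in the sources used here. No unit other than these counts was used.

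A gene was kept where both its mean count and its mean CPM reached 1, which left 12939 genes. The counts were scaled by TMM factors and fitted with edgeR 4.0.16 (R 4.3.3, quasi-likelihood, robust) as 14 group means over all 42 libraries, with no block, and p-values were adjusted by Benjamini-Hochberg over all genes at 0.05. CPM are TMM-scaled, and log2 CPM used a prior count of 2. Between conditions 13 comparisons were made for input and for polysome minus input each. Alternatives were limma 3.58.1 (voom), DESeq2 1.42.0, other scalings and filters, fits of the compared groups alone, blocks, and leaving out each culture. The scripts were tested on simulated counts.

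Groups came from the sample labels. Replicate numbers come from the labels too, which do not say what they mark. Deviations from the condition means correlated above 0.1 in 45 of 45 pairs of the same number in input and in 45 of 45 in polysome RNA over the 6 conditions without everolimus alone, and in 0 of 18 and 1 of 18 pairs that hold an everolimus culture. The number was therefore also fitted as a block, over all cultures, within each fraction, and with the everolimus cultures unblocked.

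The members and gene lists were chosen with earlier results of these data known. All members were named, and other genes were named from the lists as the called genes with the largest input changes for quizartinib against vehicle in RPMI or hBMSC-CM against RPMI under quizartinib, or for the highest input correlation with a member. Motifs were searched in RefSeq promoter windows (GRCh38).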

Additional observations from a re-analysis of the deposited data

Results flagged for a closer look

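The effect of quizartinib on the input level differed between media by a test of the difference itself for 2 genes. For FOSL1 the log2 change was 3.61 higher in hBMSC-CM than in RPMI (edgeR adjusted p = 0.00651), and for EGR1 it was 3.45 higher (edgeR adjusted p = 0.00661). Both were lower with quizartinib in 3 of 3 pairs of the same number in each medium.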

How the results depend on the processing

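The members' log2 changes were followed under all alternatives where they were called in at least 1 fit, so changes never called were left out. Of these values, 1293 kept their direction and side of the threshold, 72 gained and 84 lost a call, and 8 reversed. The counts of members called were within 1.5 times the reported ones in 510 cases and moved further in 45. Counts that involve the hBMSC-CM cultures with a drug include EGR2 where it was called, as a value and not as support. Shares of all genes called are given above for the main fit and for some fits with a block. For the other alternatives they are not given, so the counts below are not a result about the members. The counts with no filter include JUN, whose SE was much smaller in that fit. Why calls and counts changed between fits was not tested.

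For quizartinib against vehicle in hBMSC-CM, a fit of the compared groups alone called 1 member. For everolimus against vehicle, 2 members were called with the replicate block within each fraction, 4 with everolimus cultures unblocked and 0 with the compared groups alone. For combo against quizartinib in hBMSC-CM, the replicate block within each fraction called 1. For combo against everolimus, 3 were called with no filter, limma voom, the compared groups alone and each form of the replicate block. Between media, 2 were called under vehicle with no filter, and 7 under quizartinib with the replicate block over all cultures or within each fraction. The block changed no call of FOSL1 or EGR1 for the difference between media.

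For polysome minus input, hBMSC-CM combo had 7 members called with no filter and with each replicate block, and hBMSC-CM everolimus 8 with the compared groups alone. In the main fit 63.0% and 58.6% of all genes were called in these 2 conditions. In hBMSC-CM quizartinib 2 were called with library size only, the stricter filter (mean of 10 CPM, 8522 genes) and the compared groups alone. With library size only 2 were called in hBMSC-CM vehicle, RPMI quizartinib and RPMI vehicle, and 3 in RPMI quizartinib with the stricter filter, which leaves out FOSB and EGR2.

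Of the lists, AP-1 partners called for quizartinib in RPMI numbered 6 with the replicate block, targets called for quizartinib in hBMSC-CM 2 with the replicate block, and AP-1 partners called between media under quizartinib 1 with RLE factors.

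Leaving out single cultures gave 1 to 2 called members for quizartinib against vehicle in hBMSC-CM, 0 to 1 for everolimus, 3 to 4 for combo against vehicle, 1 to 2 for combo against everolimus and 0 to 1 between media under vehicle. For polysome minus input it gave 2 to 3 in hBMSC-CM quizartinib, 3 in RPMI quizartinib and 2 to 4 in RPMI vehicle. JUN for combo against everolimus reversed to -0.22 and -0.31 with the replicate block over all cultures and within each fraction. JUN also reversed without replicate 3 of the quizartinib or combo group, in fits that kept replicate 3 of the group it was compared with. Its ranges over single cultures were -1.01 to 3.35 for quizartinib and -0.61 to 3.18 for combo against vehicle in hBMSC-CM. In RPMI they were -0.55 to 1.53 and -0.28 to 1.33, and for combo against everolimus -1.07 to 1.43. EGR1 in polysome minus input of hBMSC-CM vehicle went from -1.67 to 0.075, reversing without replicate 1.

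FOSB and EGR2 had few counts, so differences in them were not detectable at this depth unless large.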
